A study of Mus musculus with 16 samples.

Results

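The comparison described here is the interaction of genotype with tumor-conditioned medium in primary mouse mammary fibroblasts. It is the response to conditioned medium in MEKK1-/- cells minus the response in MEKK1+/+ cells, and it used all 16 of the 16 arrays and all 18132 of the 18132 genes in the table. Some of the genes named were singled out after their values were seen. The cells were fibroblasts cultured from the inguinal mammary glands of 129S6 females aged 8 to 10 weeks, either MEKK1+/+ or MEKK1-/-, and all of them were grown in DMEM with 10% FBS. For 8 h they received either the same growth medium (control) or growth medium harvested from cultures of MDA-MB231, a human breast cancer cell line (conditioned medium, CM). The groups were MEKK1+/+ control, MEKK1+/+ CM, MEKK1-/- control and MEKK1-/- CM, with 4 arrays in each. The mutation was in the whole animal, so the control and the CM arrays of a genotype share it. The cultures were primary and not cloned, and the mouse behind each culture is not given in the sources used here, so the p values measure the spread between these arrays. The study describes fewer mice of each genotype than there are arrays in a group, so some arrays of a group share an animal.

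MEKK1, the product of Map3k1, is a MAP kinase kinase kinase. It sits at the top of cascades that lead through MAP kinase kinases to JNK and ERK, and it has also been placed upstream of NF-κB, the transcription factor that drives many chemokine, adhesion and acute-phase genes. Fibroblasts of the mammary stroma answer factors from tumor cells by secreting chemokines, cytokines and matrix enzymes. An interaction asks whether that answer is larger or smaller without MEKK1, which is a different question from whether a gene is expressed at a lower level without MEKK1. A gene that is lower in MEKK1-/- cells by the same amount in both media has no interaction. All values are log2 intensities after quantile normalization, a response is the mean of 4 arrays with CM minus the mean of 4 control arrays, and an interaction above 0 means a larger rise or a smaller fall in MEKK1-/- cells.

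Several arrays stood apart in ways that touch every result below. Across genes, arrays of a group correlated at 0.979 to 0.996. The MEKK1+/+ control array numbered 2 and the MEKK1-/- control array numbered 2 deviated from their group means in opposite directions, with a correlation of -0.575 over all genes, and for genes such as CXCL1, CXCL2 and CCL2 each of them lay on the side of the other genotype. Both were kept, and for the main lists and genes values without them are also given. These arrays were singled out for their values, so what is found without them is a description, and no p value of a gene is given for it. Markers of macrophages moved the same way: their summed intensity was 16890 on the MEKK1+/+ control array numbered 2 against 34650 to 51730 on the other MEKK1+/+ control arrays, and 34220 on the MEKK1-/- control array numbered 2 against 7374 to 16260 on the others. The CM arrays numbered 2 had 15240 in MEKK1+/+ and 31380 in MEKK1-/-, so in each genotype the arrays numbered 2 stood apart in both media. In bulk RNA, fewer cells of a type and less RNA per cell cannot be told apart. Of the 22 macrophage markers measured, 15 lay above the level of olfactory receptor genes, which fibroblasts are not known to use, and 7 did not, among them ITGAM, AIF1 and PTPRC. The median interaction of these markers was 0.01, with 11 of 22 above 0, and -0.20 to 0.23 with any array left out. Without the 2 control arrays numbered 2 it was 0.41, with 21 of 22 above 0. All 19 fibroblast markers lay above the olfactory level, with summed intensities from 173500 to 213000 over the 16 arrays. Epithelial markers summed to 13450 on the MEKK1-/- control array numbered 1 and 12290 on its CM counterpart, and to at most 2596 on the other arrays. The targeted gene did not check the labels: MAP3K1 was 7.71 ± 0.19 (SD, n = 4) on MEKK1+/+ control arrays and 8.24 ± 0.15 on MEKK1-/- control arrays, and where its probe lies relative to the deleted part is not given in the sources used here. Genotypes are therefore those of the labels, and whether the labels of the cultures numbered 2 were exchanged between genotypes was not tested.

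To determine whether conditioned medium acts differently without MEKK1, the responses of each gene were compared. No gene had an interaction with an adjusted p under 0.05 in the limma fit, where p values were adjusted by the Benjamini-Hochberg method across the 18132 genes (0 genes, 0%), and the smallest adjusted p was 1.00. At an unadjusted p under 0.05 there were 473 genes, 2.61% of those tested, of which 213 (1.17%) responded more positively in MEKK1-/- cells and 260 (1.43%) more negatively. The share was 1.34% among the 8186 genes whose mean lay above the olfactory level and 3.65% among the 9946 that did not. A comparison of z-scores, the kind named in the methods of the study, called 20 genes after adjustment, none of which is described below. The 95% confidence interval of an interaction reached a median of 0.25 to either side over all genes and 0.37 over genes above the olfactory level.

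The response to CM itself was tested in each genotype. In MEKK1+/+ cells 909 genes (5.01%) passed the adjusted threshold, 411 rising (2.27%) and 498 falling (2.75%), and in MEKK1-/- cells 851 (4.69%) did, 395 rising (2.18%) and 456 falling (2.51%). Of these, 235 rose in both and 297 fell in both. The 235 shared rises had median responses of 0.61 and 0.64 in MEKK1+/+ and MEKK1-/-, with 118 larger and 117 smaller in MEKK1-/- cells. Among the 297 shared falls the medians were -0.56 and -0.56, with 159 deeper and 138 shallower in MEKK1-/- cells. The median interaction was -0.00 over all genes, and 49.5% of genes, and 49.2% of those above the olfactory level, lay above 0. On the values as deposited, before quantile normalization, the median gene had an interaction of 0.29 and all 1091 genes at an unadjusted p under 0.05 were higher, so every value below is read relative to the median of all genes.

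**Figure D1:**
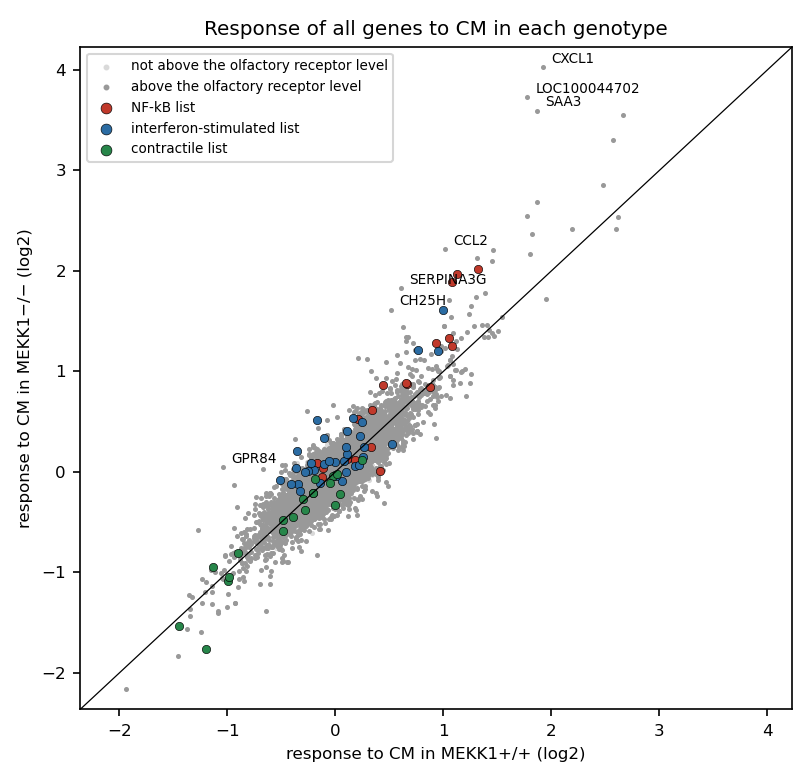
Response to CM of each of 18132 genes in MEKK1+/+ (x axis) and MEKK1-/- cells (y axis), both as log2 differences of the means of 4 arrays, with the line of equal response and members of 3 gene lists in color. Most genes lie along the line, and the named genes, whose interactions are above 1, lie above it.

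Since single genes have little power here, the genes were read in 37 lists by function. Of the 37 medians, 22 lay above 0 and 15 below, and 6 were larger than 0.1 in size. The highest was that of NF-κB subunits and feedback regulators (0.23), followed by interferon-stimulated genes (0.18), antigen presentation by MHC class I (0.13), glycolysis and hypoxia response (0.11), acute-phase and innate defense proteins (0.10), and at the other end plasminogen activators and inhibitors (-0.10). No member of any list passed the adjusted threshold for the interaction. When each array was left out in turn, 3 lists stayed above 0 every time (NF-κB regulators, CC chemokines and colony-stimulating factors) and 5 stayed below 0 (immediate-early factors, prostaglandin synthesis, BMP pathway and ID genes, the circadian clock, and plasminogen activators). The lowest medians of the 3 lists above 0 were 0.08, 0.01 and 0.02, in the order named. Without all 4 arrays numbered 2 they were 0.47, 0.14 and 0.002. Only 2 of the 6 colony-stimulating factors lay above the olfactory level. Without the 2 control arrays numbered 2, the immediate-early median was 0.05, the prostaglandin median 0.02 and the plasminogen median -0.02.

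**Figure D2:**
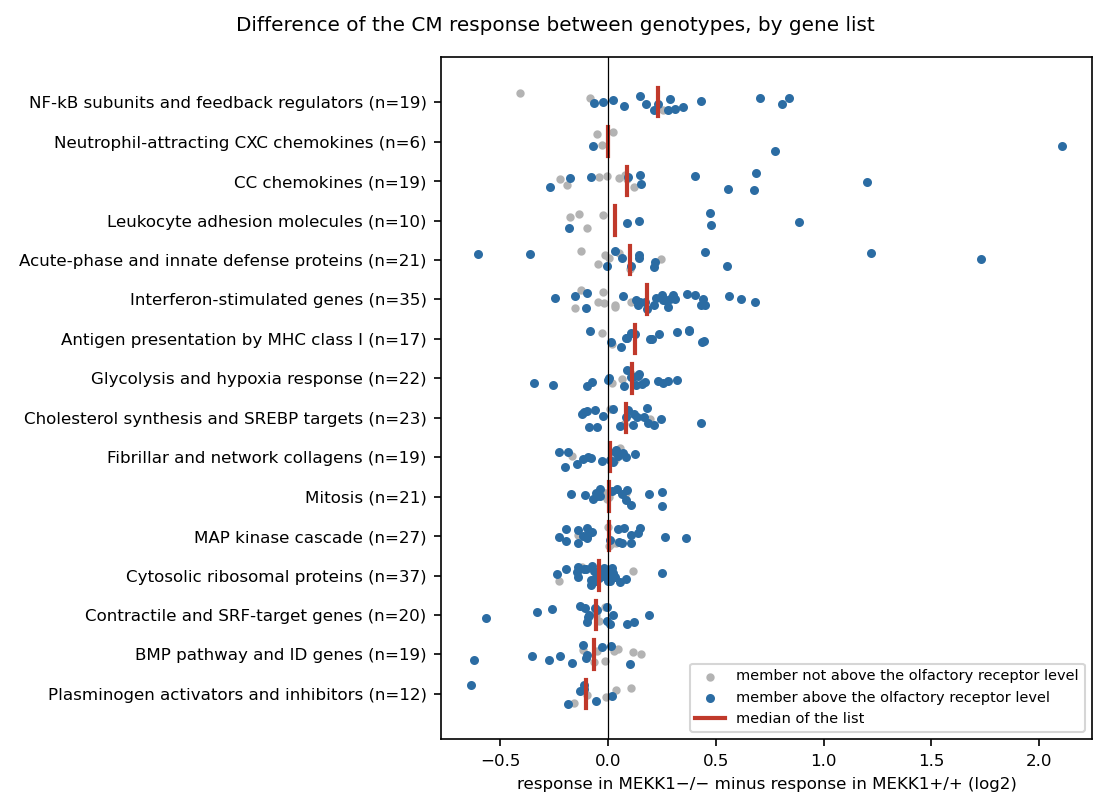
Interaction of every measured member of 16 of the 37 lists, in log2 units, with members above the olfactory receptor level in blue, others in grey, and the median of each list in red. The NF-κB list lies mostly to the right of 0, with a median of 0.23, while collagens, mitosis and the MAP kinase cascade are centred on 0.

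The NF-κB list had the highest median of the 37. It holds the NF-κB subunits and the genes that NF-κB itself induces to restrain the pathway, such as the inhibitors of the IκB family. Of its 19 measured members 16 were above the olfactory level, and the median response was 0.44 with MEKK1 and 0.85 without it. The response was larger in MEKK1-/- cells for 15 of 19 members (78.9%, against 49.5% of all genes). Of these genes 3 rose in MEKK1+/+ cells (NFKB2, TNFAIP2 and IER3) and 8 in MEKK1-/- cells (the same 3 with NFKBIA, NFKBIZ, BCL3, TNIP1 and ZC3H12A), against 2.27% and 2.18% of all genes rising. None fell in either, and the difference between these counts was not tested. The genotypes lay further apart in control medium than with CM. In control medium 17 of 19 members were lower in MEKK1-/- cells, with a median of -0.25, and with CM 13 of 19 were lower, with a median of -0.09. Over all genes the median difference in level was 0.008 in control medium and 0.004 with CM. The levels of the lists below are read beside the same medians.

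The promoters of listed genes were searched for letters that NF-κB and interferon-activated factors are known to bind. The 300 bases around the start of transcription, from 250 before to 50 after, are shown for 3 NF-κB targets and 1 interferon-stimulated gene that the results turn on, as RefSeq gives them on GRCm38.p6, each 5′ to 3′ on the strand of its gene. Capitals mark matches, on either strand, to GGG and TTCC with any 3 bases between them, a form of the κB site, in the first 3 windows. In the last they mark GAAA and GAAA with any 2 bases between them, the core of the interferon-stimulated response element. Matches may overlap.
Cxcl1, chr5:90890995-90891294, plus strand: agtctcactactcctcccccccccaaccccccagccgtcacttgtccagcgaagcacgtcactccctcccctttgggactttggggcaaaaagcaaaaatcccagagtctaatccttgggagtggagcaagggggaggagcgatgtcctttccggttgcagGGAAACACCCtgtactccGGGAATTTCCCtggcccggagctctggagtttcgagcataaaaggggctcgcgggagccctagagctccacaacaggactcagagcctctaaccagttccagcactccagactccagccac
Cxcl2, chr5:90903649-90903948, plus strand: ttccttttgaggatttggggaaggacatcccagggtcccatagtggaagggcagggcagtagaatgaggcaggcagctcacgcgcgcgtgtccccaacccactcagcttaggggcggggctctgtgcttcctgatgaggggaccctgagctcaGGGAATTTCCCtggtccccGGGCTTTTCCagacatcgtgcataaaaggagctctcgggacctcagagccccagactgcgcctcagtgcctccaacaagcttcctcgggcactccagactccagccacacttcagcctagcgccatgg
Nfkbia, chr12:55492598-55492897, minus strand: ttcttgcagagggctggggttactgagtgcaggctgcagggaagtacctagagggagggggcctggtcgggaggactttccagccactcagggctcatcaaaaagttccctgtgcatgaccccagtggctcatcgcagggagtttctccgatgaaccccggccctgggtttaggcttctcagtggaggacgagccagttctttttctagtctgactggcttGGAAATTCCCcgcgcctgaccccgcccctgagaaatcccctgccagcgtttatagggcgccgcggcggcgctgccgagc
Ifit3, chr19:34583279-34583578, plus strand: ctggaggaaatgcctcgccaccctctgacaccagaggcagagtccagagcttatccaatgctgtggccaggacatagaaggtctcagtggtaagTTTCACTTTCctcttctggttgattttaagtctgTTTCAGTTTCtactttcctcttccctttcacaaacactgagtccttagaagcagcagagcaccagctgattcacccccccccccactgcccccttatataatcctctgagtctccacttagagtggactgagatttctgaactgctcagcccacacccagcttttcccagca
In the Cxcl1 window the match GGGAATTTCC begins at position -71 from the start, and a match on the other strand begins at -89. Cxcl2 has the same letters at -97 and GGGCTTTTCC at -78, and Nfkbia has a match on the other strand at -29. In Ifit3 the matches begin at -156 and -122. A κB match was present in 5.56% of all 32851 promoter windows and in 52.6% of the 19 windows of the NF-κB list, which cover 16 of its 19 members. The interferon element was present in 3.44% of all windows and in 47.1% of the 34 windows of the interferon-stimulated list, which cover 28 of its 35 members. In the NF-κB list the 10 matching windows belong to 7 members. Both lists hold genes known to answer these factors, so their shares say nothing about the interaction. A match is a description of the letters and not evidence of binding. The window of Icam1 holds no κB match of this form, and Ccl2, Ccl7 and Nfkbiz were not matched to a window.

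Among the inhibitors and feedback genes, NFKBIA encodes IκBα, which holds NF-κB in the cytoplasm. On MEKK1+/+ control arrays 1 to 4 it was 10.56, 8.997, 11.05 and 11.63, and with CM 11.84, 10.86, 11.37 and 12.50. On MEKK1-/- control arrays it was 9.56, 10.72, 9.02 and 8.83, and with CM 11.19, 11.64, 11.31 and 11.56. The control arrays of MEKK1+/+ overlapped those with CM, whereas the MEKK1-/- arrays did not overlap. NFKBIA rose 3.71-fold in MEKK1-/- cells (log2 1.89 ± 0.50 SE, adjusted p = 0.0442) and was 2.12-fold higher with CM in MEKK1+/+ cells (1.08 ± 0.50, adjusted p = 0.293), with an interaction of 0.81 (95% confidence interval -0.71 to 2.33). It was 1.73 without the 2 control arrays numbered 2.

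NFKBIZ, an atypical IκB protein needed for secondary NF-κB targets such as IL6, responded by 1.32 in MEKK1+/+ and 2.02 in MEKK1-/- cells. Its control arrays were 11.52, 9.50, 10.52 and 11.71 in MEKK1+/+ and 8.91, 10.90, 9.39 and 9.56 in MEKK1-/-. ZC3H12A, the RNase regnase-1 that degrades inflammatory mRNAs, responded by 1.13 and 1.97, with an interaction of 0.84 (-0.35 to 2.03). With CM it lay at 9.86 to 10.49 in MEKK1+/+ and 9.90 to 10.30 in MEKK1-/- cells, so the genotypes overlapped with CM, while the control arrays were 9.005, 7.80, 8.99 and 10.34 against 7.91, 8.97, 7.72 and 7.65. NFKB2, the p100 precursor of the non-canonical pathway, rose in both genotypes, by 0.93 (adjusted p = 0.0113) and 1.28 (adjusted p = 0.00152). NFKBIE had responses of 0.21 and 0.52, neither past the threshold. The member with the smallest unadjusted interaction p was REL (0.25, unadjusted p = 0.047), which lay below the olfactory level and was named after its values were seen.

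The NF-κB median rested heavily on the control arrays. It was 0.08 without MEKK1+/+ control replicate 4 and 0.49 without MEKK1+/+ control replicate 2, and these are the ends of the range over the 16 arrays left out in turn. Without both control arrays numbered 2 it was 0.61, with the interaction of 17 of 19 members above 0. In the same setting the macrophage markers had a median of 0.41, with 21 of 22 above 0. These markers moved with the arrays numbered 2, and the summed level of that list was 16890 to 51730 in MEKK1+/+ control and 7374 to 34220 in MEKK1-/- control. The part of this in the NF-κB shift was not tested.

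Neutrophil-attracting CXC chemokines, the ligands of CXCR2, held the gene with the largest interaction in the table among those above the olfactory level. CXCL1 on MEKK1+/+ control arrays 1 to 4 was 13.96, 9.44, 13.69 and 15.18, and with CM 15.39, 14.49, 15.11 and 14.97. On MEKK1-/- control arrays it was 10.43, 13.76, 10.11 and 10.24, and with CM 15.14, 15.20, 15.18 and 15.14. The 8 arrays with CM lay close together, and the control arrays of a genotype spanned several log2 units, with the arrays numbered 2 on the side of the other genotype. CXCL1 rose 16.3-fold in MEKK1-/- cells (4.03 ± 0.97, adjusted p = 0.0276) and was 3.78-fold higher in MEKK1+/+ cells (1.92 ± 0.97, adjusted p = 0.349), with an interaction of 2.11 (-0.83 to 5.05). Without the 2 control arrays numbered 2 the interaction, relative to the median gene, was 4.20, and without all 4 arrays numbered 2 it was 3.99. CXCL1 was among the genes that set these arrays apart, so these values are a description and not a test. With CM its signal was among the brightest on the array, ranking 3 to 67 of 18132, under a highest normalized value of 15.47 that every array shares, and the part of that ceiling was not tested. The rest of the list was mixed. CXCL2 responded by 1.77 and 2.55 (interaction 0.78, -0.79 to 2.34). The other 4 measured members, including PPBP, had interactions within 0.07 of 0, so the median of the 6 was -0.00. Only 3 of the 6 lay above the olfactory level, and with genes not above it left out the median was 0.78. CXCL2 control arrays were 8.83, 6.90, 8.55 and 9.91 in MEKK1+/+ and 6.86, 8.32, 7.06 and 6.80 in MEKK1-/-.

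CC chemokines showed both kinds of behavior. CCL2, the main attractant of monocytes, was 13.73, 10.97, 13.49 and 14.03 on MEKK1+/+ control arrays and 10.60, 13.54, 11.36 and 11.88 on MEKK1-/- control arrays. With CM it was 13.80 to 14.19 in MEKK1+/+ and 14.02 to 14.12 in MEKK1-/- cells. The levels with CM overlapped between genotypes, while the MEKK1-/- control arrays lay lower apart from the array numbered 2. The response was 1.02 ± 0.60 (adjusted p = 0.446) in MEKK1+/+ and 2.22 ± 0.60 (adjusted p = 0.0469) in MEKK1-/- cells, an interaction of 1.20 (-0.60 to 3.01). Without the 2 control arrays numbered 2, which were singled out for values such as these, it was 2.48. CCL7, a neighbor of CCL2 in sequence and receptor, had responses of 0.38 and 0.93 with values near the top of the array, and CCL11, an eosinophil attractant, 0.65 and 1.34.

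CCL5, an attractant of T cells and monocytes, behaved differently. It was 9.15, 7.64, 9.63 and 9.86 on MEKK1+/+ control arrays and 11.45, 11.23, 11.87 and 12.20 with CM, against 7.92, 8.37, 6.84 and 6.92 on MEKK1-/- control arrays and 8.70, 10.81, 10.41 and 10.27 with CM. In each genotype the 2 treatments did not overlap, which holds for 9.7% of all genes in MEKK1+/+ and 10.4% in MEKK1-/- cells (exact permutation test, 2-sided, p = 0.0286, the smallest this design allows). It rose 6.14-fold in MEKK1+/+ and 5.81-fold in MEKK1-/- cells (2.62 and 2.54, adjusted p = 0.00812 and 0.0101), so the interaction was -0.08 (-1.63 to 1.47). The MEKK1-/- cells were lower by 1.56 in control medium, where arrays of the genotypes overlapped, and by 1.64 with CM, where they did not. The interaction was 0.68 without the 2 control arrays numbered 2. CCL3, CCL4 and CCL6, further attractants of monocytes, had interactions of 0.40 (-2.70 to 3.51), 0.68 (-2.28 to 3.64) and 0.15 (-1.98 to 2.29), and neither response passed the threshold for any of them. Over the 19 measured CC chemokines, 11 of them above the olfactory level, the median interaction was 0.09, with 12 above 0. The summed macrophage markers were lower on MEKK1-/- than on MEKK1+/+ arrays in both media, apart from the arrays numbered 2, and their part in the CCL5 difference was not tested.

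**Figure D3:**
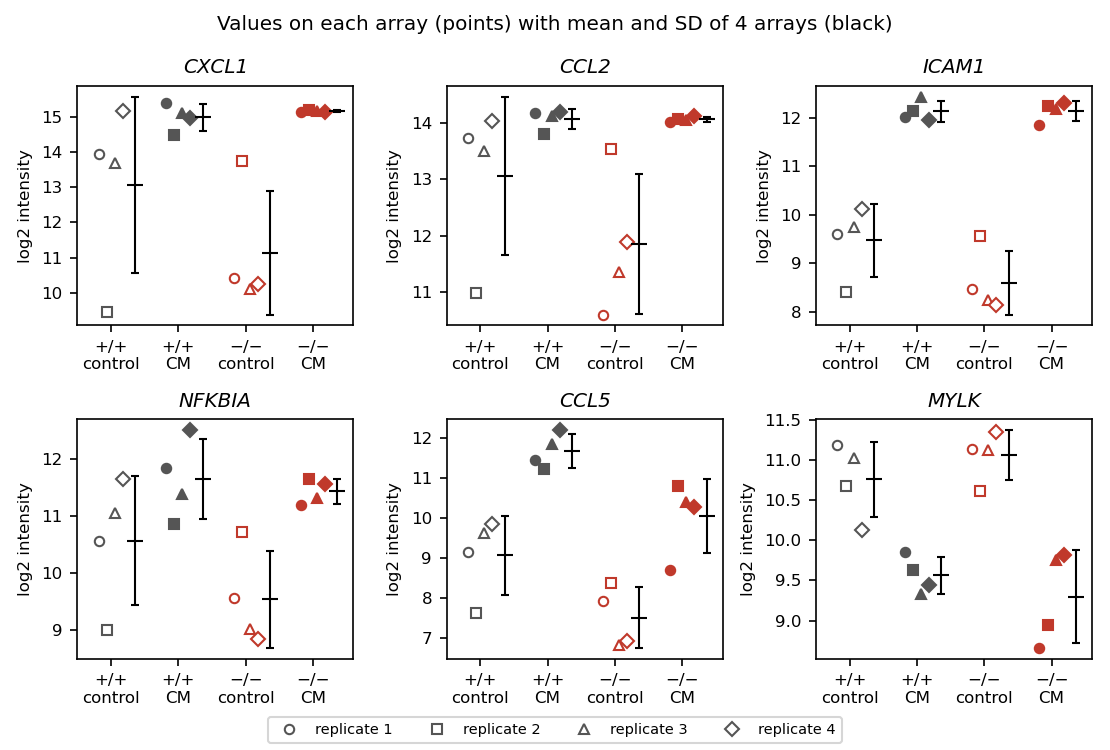
Log2 intensity on each array of 6 genes in the 4 groups, with symbols for the replicate number and the mean and SD of 4 arrays in black. For CXCL1, CCL2, ICAM1 and NFKBIA the groups with CM lie at like levels while most MEKK1-/- control arrays lie lower than MEKK1+/+ ones; for CCL5 the MEKK1-/- means lie lower in both media, with overlapping control arrays and separate arrays with CM, and MYLK falls in both.

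ICAM1, the endothelial and fibroblast ligand of leukocyte integrins, rose in each genotype. It was 9.61, 8.40, 9.76 and 10.13 on MEKK1+/+ control arrays and 12.01, 12.15, 12.44 and 11.95 with CM. In MEKK1-/- cells it was 8.46, 9.56, 8.23 and 8.14 and then 11.85, 12.26, 12.20 and 12.30. All arrays with CM lay above all control arrays, and the levels with CM overlapped between genotypes. The rise was 6.35-fold in MEKK1+/+ (adjusted p = 0.000434) and 11.8-fold in MEKK1-/- cells (adjusted p = 5.94e-05), an interaction of 0.89 (-0.11 to 1.89, unadjusted p = 0.0775). Without the 2 control arrays numbered 2 it was 1.56, and without all 4 arrays numbered 2 it was 1.54. VCAM1 (0.74 and 1.21) and CD47 (0.32 and 0.80) did not pass the threshold in either genotype. The median interaction over 10 adhesion molecules, 6 of them above the olfactory level, was 0.03.

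CXCL16, a transmembrane chemokine, responded by 1.31 (adjusted p = 0.144) and 2.13 (adjusted p = 0.0169), with an interaction of 0.82. CXCL12, the homeostatic ligand of CXCR4, had a difference of the other sign. It was 8.68, 9.70, 10.08 and 10.08 on MEKK1+/+ control arrays and 8.23, 8.30, 9.74 and 9.69 with CM, and 10.00, 9.89, 10.18 and 10.05 on MEKK1-/- control arrays and 8.26, 9.52, 8.31 and 8.51 with CM. The difference was -0.64 in MEKK1+/+ and -1.38 in MEKK1-/- cells, where the arrays did not overlap (adjusted p = 0.057), and the interaction was -0.74 (-1.91 to 0.44).

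Interferon-stimulated genes had a median interaction of 0.18, and the interaction was above 0 for 26 of 35 members (74.3%). None of the 35 passed the threshold for the response in either genotype, and their median response was 0.00 with MEKK1 and 0.10 without it. The genotypes differed more in level: 32 of 35 were lower in MEKK1-/- control cells, with a median of -0.66, and 34 of 35 were lower with CM, with a median of -0.46. IFIT3, an antiviral protein, was 9.34, 8.04, 9.85 and 12.90 on MEKK1+/+ control arrays and 7.41, 8.86, 7.99 and 8.06 on MEKK1-/- control arrays. With CM it was 9.90, 9.97, 10.00 and 13.30 against 7.54, 10.07, 9.81 and 9.76. MEKK1+/+ replicate 4 stood above the other arrays in both media. The 7 neutrophil markers measured, 2 of which lay above the olfactory level, also summed highest there, to 5143 in control medium and 5031 with CM against 847.8 to 1990 on the other 14 arrays, and their part in this list and in the MHC class I and acute-phase lists was not tested. The guanylate-binding proteins GBP3 and GBP2 had interactions of 0.62 and 0.25, and OASL2, DDX58 and IRF9 of 0.68, 0.28 and 0.22, all with intervals that include 0. Without MEKK1+/+ control replicate 4 the median of the list was -0.10, without MEKK1+/+ CM replicate 4 it was 0.50, and without the 2 control arrays numbered 2 it was 0.45.

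Antigen presentation by MHC class I covers class I heavy chains, the peptide transporter and the immunoproteasome. Its interaction was above 0 for 15 of 17 members (88.2%), with a median of 0.13. In control medium 17 of 17 were lower in MEKK1-/- cells, with a median of -0.40, and with CM 15 of 17 were, with a median of -0.23. H2-K1, a class I heavy chain, was the member with the smallest unadjusted interaction p in limma (0.0329), with an interaction of 0.45 (0.04 to 0.85). It was 7.29, 7.32, 7.48 and 7.77 and then 7.28, 7.06, 7.54 and 7.68 in MEKK1+/+ cells, and 7.27, 7.05, 7.198 and 7.08 and then 7.49, 7.65, 7.26 and 7.68 in MEKK1-/- cells. These levels lie close to the olfactory level of 7.26, and the signal of a class I gene may include that of near-identical copies. TAP2, a subunit of the transporter, responded by 0.74 (adjusted p = 0.157) and 1.11 (adjusted p = 0.0295), and the immunoproteasome subunits PSMB9 and PSMB10 had interactions of 0.38 and 0.32. H2-M3 rose in both, by 0.61 and 0.67. Without MEKK1+/+ control replicate 4 the median of the list was -0.01, and without the 2 control arrays numbered 2 it was 0.36, with 16 of 17 above 0.

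Acute-phase and innate defense proteins had an interaction above 0 for 15 of 21 members. The median was 0.10, which was -0.08 without MEKK1+/+ control replicate 4 and 0.25 without the 2 control arrays numbered 2. SAA3, the serum amyloid A made outside the liver, was 13.32, 8.11, 13.97 and 15.07 on MEKK1+/+ control arrays and 11.69, 13.96, 7.77 and 8.02 on MEKK1-/- control arrays. With CM it was 13.80 to 14.94 and 13.47 to 14.91. The interaction of 1.73 had an interval of -2.45 to 5.91, and the control arrays spanned more than 6 log2 units in each genotype. Without the 2 control arrays numbered 2 the interaction was 4.43. SERPINA3G, a serine protease inhibitor, had an interaction of 1.22, PTX3, a soluble pattern receptor, 0.45, the complement protein C3 0.55 and LCN2, a siderophore-binding protein, 0.22. NOS2, the inducible nitric oxide synthase, was 1 of 6 members with a lower response in MEKK1-/- cells. It rose in MEKK1+/+ cells from 7.02, 6.89, 7.25 and 7.28 to 8.24, 7.59, 7.67 and 8.68 (0.94, adjusted p = 0.0184). In MEKK1-/- cells it was 7.23, 6.998, 7.02 and 7.14 and then 6.92, 7.54, 7.72 and 7.54 (0.33, adjusted p = 0.509). The interaction was -0.60 (-1.24 to 0.04, unadjusted p = 0.0625).

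**Figure D4:**
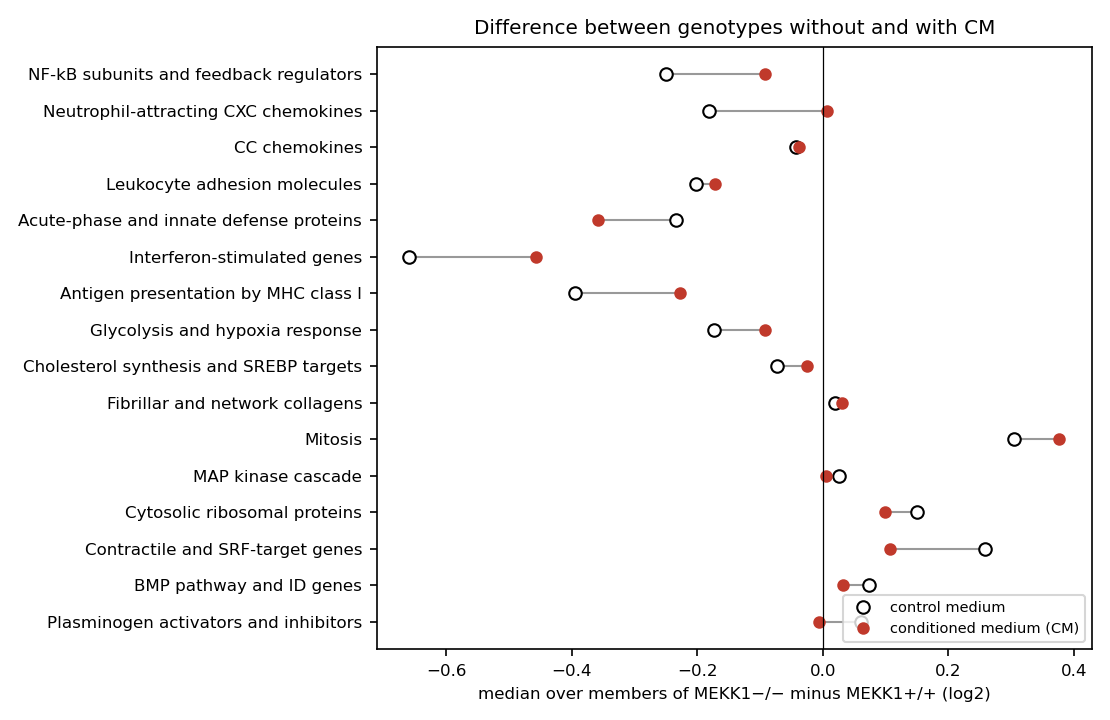
Median over the members of each list of the level in MEKK1-/- minus MEKK1+/+ cells, in log2 units, in control medium (open circles) and with CM (filled circles). The NF-κB, interferon-stimulated and MHC class I lists lie below 0 in both media and nearer to 0 with CM, while the contractile list lies above 0 and moves toward it.

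Other genes with an interaction above 1 were singled out after their values were seen. There were 7 among genes above the olfactory level, and 0 below -1. Beside CXCL1, SAA3, SERPINA3G and CCL2 they were LOC100044702 (1.96), CH25H (1.10), the enzyme that makes 25-hydroxycholesterol, and GPR84 (1.09), a fatty acid receptor. GPR84 had a response of -1.04 in MEKK1+/+ cells (adjusted p = 0.344), where it was 9.37, 7.198, 9.32 and 8.91 in control medium and 7.84, 7.34, 7.95 and 7.50 with CM, while MEKK1-/- cells were 7.15, 9.26, 7.01 and 6.72 and then 7.99, 8.08, 7.11 and 7.18. CH25H was 12.65, 10.20, 12.27 and 12.89 on MEKK1+/+ control arrays and 9.98, 12.24, 9.67 and 9.78 on MEKK1-/- control arrays. Without all 4 arrays numbered 2 the CH25H interaction was 1.95, and without the 2 control arrays numbered 2 it was 2.32. In each of these 7 genes the array numbered 2 was the lowest of the MEKK1+/+ control arrays and the highest of the MEKK1-/- control arrays.

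Other genes had smaller interactions with narrower intervals. Of the 1228 genes that passed the adjusted threshold in at least 1 genotype, 67 had an unadjusted interaction p under 0.05. Over all 18132 genes 473 did (2.61%). Passing in only 1 genotype selects for unlike responses, so the 67 are a description and not an excess. Among them were 4 of the 235 shared rises and 3 of the 297 shared falls. The largest interaction of the 67 was that of GADD45A, a stress sensor that binds the kinase MEKK4. It was 10.69, 10.97, 10.81 and 11.01 on MEKK1+/+ control arrays and 11.76, 11.55, 11.56 and 11.26 with CM, against 10.06, 10.74, 10.34 and 10.19 and then 11.37, 11.41, 11.9955 and 11.78 in MEKK1-/- cells. The treatments did not overlap in either genotype. It rose 1.58-fold in MEKK1+/+ (adjusted p = 0.0262) and 2.47-fold in MEKK1-/- cells (adjusted p = 0.000395), an interaction of 0.65 (0.17 to 1.13, unadjusted p = 0.0117), which was 0.53 to 0.79 with any array left out.

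ZCCHC17, a zinc-knuckle RNA-binding protein of the nucleolus, had the smallest unadjusted interaction p among genes above the olfactory level (0.000108). In MEKK1+/+ cells it was 8.98, 8.95, 9.03 and 8.86 and with CM 8.90, 9.21, 9.23 and 9.20. In MEKK1-/- cells it was 9.28, 9.29, 9.29 and 9.29 and with CM 9.06, 8.84, 8.87 and 8.94. It fell in MEKK1-/- cells (-0.36, adjusted p = 0.0105) and was 0.18 higher in MEKK1+/+ cells, an interaction of -0.54 (-0.76 to -0.32). With MEKK1+/+ CM replicate 1 left out, the interaction was -0.61, and ZCCHC17 alone passed the adjusted threshold in limma. That array stood apart at 8.90, a value that made the interaction smaller in size. ZCCHC17 had also been picked for its small p, so this result is a description and not a test. With all arrays, or with any other single array left out, no gene passed. ZFP36, which binds AU-rich mRNAs of cytokines and speeds their decay, was 10.49, 10.09, 10.49 and 10.20 in MEKK1+/+ control and 9.94, 10.11, 9.67 and 10.28 with CM. It fell in MEKK1-/- cells from 10.33, 10.48, 10.18 and 10.25 to 9.47, 9.63, 9.51 and 9.47 (-0.79, adjusted p = 0.00164), an interaction of -0.47 (unadjusted p = 0.0144). NFATC3, a calcium-regulated transcription factor, and LMCD1, a LIM domain co-regulator, fell in MEKK1-/- cells (-0.44 and -0.57, adjusted p = 0.0477 and 0.0245), with responses of 0.12 and -0.07 in MEKK1+/+ cells.

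The opposite arrangement, a fall in MEKK1+/+ cells with no fall past the threshold without MEKK1, was seen for the RNA-binding proteins HNRPA1 and HNRNPF. HNRPA1, current symbol Hnrnpa1, was 8.85, 9.51, 9.27 and 9.12 in MEKK1+/+ control and 8.78, 8.69, 8.67 and 8.60 with CM, and 9.75, 9.14, 9.17 and 9.25 and then 9.28, 9.29, 9.27 and 9.47 in MEKK1-/- cells. It fell by 0.50 in MEKK1+/+ (adjusted p = 0.0472) and its response in MEKK1-/- cells was -0.00. It has many near-identical copies in the genome, so its value may be shared with them. HNRNPF fell by 0.46 in MEKK1+/+ cells (adjusted p = 0.041) and had a response of 0.02 in MEKK1-/- cells. EPB4.1L2, a membrane-skeleton protein, fell by 0.46 in MEKK1+/+ cells (adjusted p = 0.024), with no overlap between the treatments. Its response in MEKK1-/- cells was 0.07. AI846148 rose in MEKK1+/+ cells (0.39, adjusted p = 0.0356) and had a response of -0.08 in MEKK1-/- cells.

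The remaining genes with the smallest unadjusted interaction p above the olfactory level moved by less. The interaction was above 0 for AI316807 (0.39), TRO (0.34), TMED2 (0.42), MSTO1 (0.42), TFAM (0.42) and RNF2 (0.21), with unadjusted p from 0.00194 to 0.00914. TRO, the adhesion protein trophinin, rose in both genotypes, from 7.03, 7.17, 7.10 and 7.07 to 7.68, 7.99, 7.91 and 7.93 in MEKK1+/+ cells and from 7.12, 6.97, 7.03 and 7.14 to 8.18, 8.15, 8.12 and 8.32 in MEKK1-/- cells. All MEKK1-/- arrays with CM lay above all MEKK1+/+ arrays with CM. TFAM, the packaging factor of mitochondrial DNA, and MSTO1, which acts in mitochondrial morphology, were 2 mitochondrial genes among them, while the list of oxidative phosphorylation genes had a median of 0.00 over 37 members. The interaction was below 0 for AHDC1 (-0.58), HMGB2L1 (-0.35), NEDD4 (-0.36), a ubiquitin ligase, ANKRD50 (-0.34) and a gene whose current symbol is Kansl3 (-0.28), with unadjusted p from 0.00284 to 0.00751.

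Among lists with a smaller response or a deeper fall, the contractile and SRF-target genes stood out by their falls. SRF and its co-factors drive genes of actin bundles and contraction. The same 5 of 20 members (MYLK, LMOD1, SRF, TGFB1I1 and FHL2) fell in MEKK1+/+ and in MEKK1-/- cells, against 2.75% and 2.51% of all genes falling, and the median response was -0.29 and -0.35. The interaction was below 0 for 15 of 20 members, with a median of -0.05. MYLK, myosin light chain kinase, was 11.19, 10.68, 11.03 and 10.13 and then 9.86, 9.62, 9.34 and 9.44 in MEKK1+/+ cells, and 11.14, 10.62, 11.12 and 11.35 and then 8.66, 8.95, 9.76 and 9.82 in MEKK1-/- cells. It fell in both, with responses of -1.19 and -1.76 (adjusted p = 0.0183 and 0.0016), an interaction of -0.57 (-1.38 to 0.24). MYH11 and CALD1, the smooth-muscle myosin heavy chain and caldesmon, had interactions of -0.33 and -0.26, and FHL2 and LMOD1, which also fell in both, of -0.09 and 0.19. The list's median was 0.04 without MEKK1-/- CM replicate 2 and -0.18 without the 2 control arrays numbered 2.

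The BMP pathway and ID genes had a median interaction of -0.06, and the interaction was below 0 for 13 of 19 members, 11 of the 19 being above the olfactory level. In level, 5 of 19 were lower in MEKK1-/- control cells and 8 of 19 with CM. ID2, an inhibitor of basic helix-loop-helix factors, was 7.93, 7.72, 7.75 and 7.99 and then 7.74, 7.21, 7.85 and 7.83 in MEKK1+/+ cells. In MEKK1-/- cells it fell from 8.07, 7.85, 7.86 and 7.97 to 7.53, 7.64, 7.29 and 7.11 (-0.55, adjusted p = 0.0353), an interaction of -0.35 (-0.77 to 0.06). The antagonist FST had an interaction of -0.62, the receptor BMPR1A of -0.27 and SMAD1 of -0.22. In the plasminogen list, with 7 of 12 members above the olfactory level, the interaction was below 0 for 9 of 12, with a median of -0.10. PLAU, urokinase, had responses of 0.20 and -0.43 and an interaction of -0.64 (-1.39 to 0.12), and SERPINB2, its inhibitor PAI-2, rose in both by 2.60 and 2.42 (adjusted p = 0.019 and 0.0299). HAS2, the main hyaluronan synthase of fibroblasts, fell in MEKK1-/- cells from 10.21, 10.05, 10.05 and 9.87 to 8.95, 9.35, 9.23 and 9.06 (-0.90, adjusted p = 0.00332). In MEKK1+/+ cells it went from 9.85, 9.60, 9.45 and 9.22 to 9.40, 8.83, 9.33 and 8.81 (-0.44, adjusted p = 0.132). Its interaction of -0.46 had an unadjusted p of 0.0489. HAS2 was higher by 0.52 in MEKK1-/- control cells and by 0.05 with CM. The hyaluronan list as a whole had 8 of 10 members above 0 and a median of 0.03.

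The kinases below MEKK1 showed no common shift. Over 27 genes of the MAP kinase cascade the median interaction was 0.00, with 15 above 0 and 12 below. MAPK3, the kinase ERK1, had an interaction of 0.26 (-0.04 to 0.57). It rose in MEKK1-/- cells from 7.93, 8.22, 8.14 and 7.91 to 8.39, 8.75, 8.42 and 8.49 (0.46, adjusted p = 0.015). IKBKB, the kinase of IκB, MAP2K7, an activator of JNK, and MAP3K8, a parallel kinase induced by inflammation, had interactions of 0.15, -0.14 and 0.36. Of 19 immediate-early factors, including the AP-1 subunits that JNK acts on, 12 lay above the olfactory level. The interaction was below 0 for 13 of the 19, and the median was -0.05. That median was -0.12 to -0.0004 with any array left out, and 0.05 without the 2 control arrays numbered 2. MAFF and FOSB had interactions of -0.22 and -0.17 and JUNB and EGR1 of 0.23 and 0.36, each with an interval that includes 0. The dual-specificity phosphatases and Sprouty genes had a median of -0.00 over 13, 8 of them above the olfactory level, with DUSP7 at -0.29 and DUSP1 at -0.15.

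Cholesterol synthesis genes, which SREBP controls, had a median response of -0.34 in MEKK1+/+ and -0.25 in MEKK1-/- cells. Of 23 members 6 fell in MEKK1+/+ and 2 in MEKK1-/- cells, against 2.75% and 2.51% of all genes falling, and the difference between these counts was not tested. Of the 23, 16 had an interaction above 0, with a median of 0.08. SQLE, squalene epoxidase, fell by 0.82 (adjusted p = 0.00891) in MEKK1+/+ and had a response of -0.57 (adjusted p = 0.0604) in MEKK1-/- cells, and SCD2, a fatty acid desaturase, fell by 0.69 (adjusted p = 0.0439) against -0.26 (adjusted p = 0.573). The glycolysis and hypoxia list had 18 of 22 above 0 and a median of 0.11, which was -0.06 without MEKK1-/- control replicate 1 and 0.26 without the 2 control arrays numbered 2. Fibrillar collagens had a median of 0.01 over 19, mitosis 0.00 over 21, DNA replication -0.02 over 23 and cytosolic ribosomal proteins -0.04 over 37, of which 27 were below 0. With any array left out the collagen median was -0.05 to 0.04, that of mitosis -0.09 to 0.19 and that of DNA replication -0.12 to 0.08. Without the 2 control arrays numbered 2 they were -0.10, -0.17 and -0.17, with 6 of 19, 3 of 21 and 2 of 23 members above 0.

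**Figure D5:**
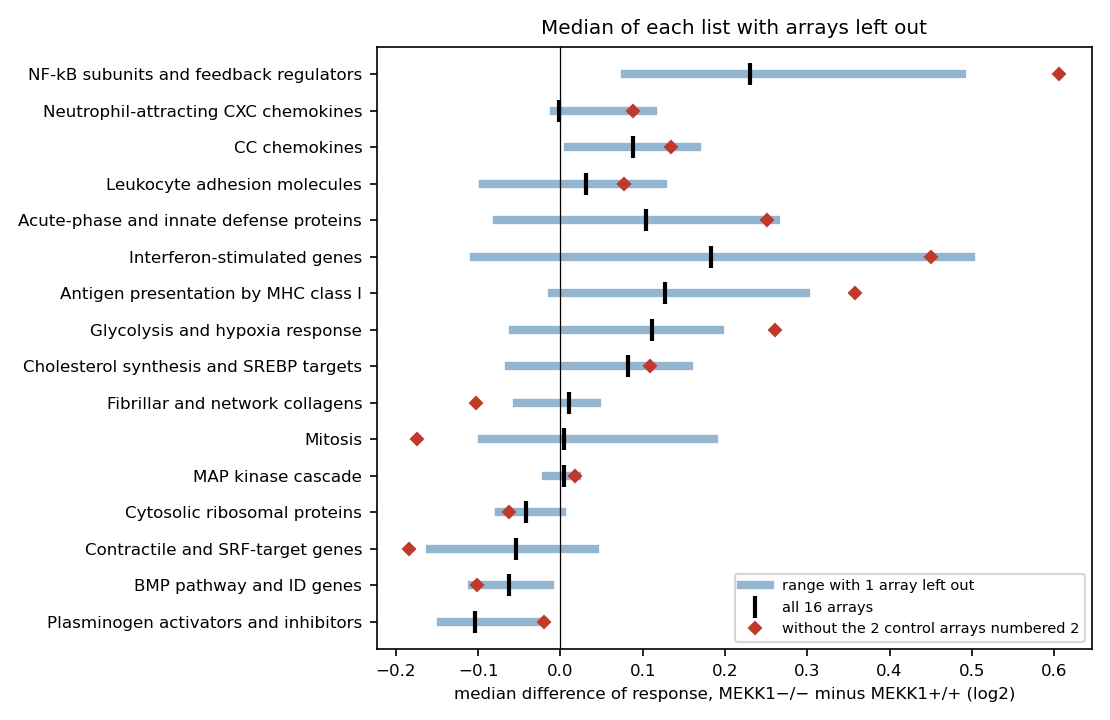
Median interaction of 16 lists in log2 units with all 16 arrays (black ticks), its range when each array was left out in turn (blue bars), and its value without the 2 control arrays numbered 2 (red diamonds). The bar of the NF-κB list runs from 0.08 to 0.49 without crossing 0, while those of the interferon-stimulated, MHC class I and acute-phase lists cross it.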

How the data were processed

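Total RNA of 16 cultures was measured on Illumina mouse arrays. The authors deposited 1 table of normalized intensities made by a core facility, with 1 value per gene and array, on a linear scale. The normalization method is not given in the sources used here, and array medians ran from 113.8 to 170.1. Intensities were taken to log2, quantile normalized and fitted with limma 3.58.1 in R 4.3.3 over the 4 groups, and p values were adjusted by Benjamini-Hochberg over 18132 genes, with a threshold of 0.05. The response in each genotype was also tested with an exact permutation test, 2-sided. A gene was above the olfactory level when its mean exceeded the 99th percentile of 1075 olfactory receptor genes (7.26 on the log2 scale). Array number and signal over this level limit the precision.

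Genes were named by a rule: MAP3K1 and the CC chemokines the study names, the 8 genes with the smallest unadjusted interaction p in each direction above the olfactory level, the 10 largest interactions among genes responding in a genotype with an unadjusted interaction p under 0.05, and in each list up to 4 members above that level with the smallest unadjusted interaction p and up to 3 with the largest mean response. TNFAIP2, IER3, BCL3, TNIP1, SRF, TGFB1I1, REL and the 7 genes with an interaction above 1 were singled out after their values were seen. The members and lists were chosen with earlier results of these data known. Alternatives were the deposited scale, another centring, z-scores with the methods' z-test, array weights, filters, replicate blocks and arrays left out. Control and CM arrays of the same number deviated together in MEKK1-/- (correlations 0.219 to 0.505) and not throughout in MEKK1+/+ cells (-0.038 to 0.576). The fit was also run on simulated data with independent noise on each array. Those data hold no shared animals and no arrays that stand apart, so they do not test the fit under these features. A few genes that the rule named are not reported here.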

Additional observations from a re-analysis of the deposited data

Results flagged for a closer look

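In 33 of 364 groups of 4 arrays checked, over the genes and list means described, the highest or lowest array stood apart from the other 3 by Dixon's criterion at its 95% limit, and chance alone gives about 1 in 20. All values are log2 intensities.

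The MEKK1-/- control array numbered 2 was the one that stood apart for CXCL1 (13.76), LOC100044702 (10.73), CXCL2 (8.32), NFKBIE (7.89), SERPINA3G (10.78), CH25H (12.24), GPR84 (9.26), GBP2 (8.71) and MAP3K8 (8.08). It did so too for the list means of the neutrophil-attracting chemokines (8.32), MHC class I (8.87) and the contractile genes (10.46). The macrophage marker sum was 34220 on that array and 7374 to 16260 on the other MEKK1-/- control arrays.

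On the MEKK1-/- CM array numbered 1, IFIT3 (7.54), GBP3 (8.20), MSTO1 (8.38), VCAM1 (11.15) and the mean of the interferon-stimulated genes (7.89) stood apart, and the epithelial marker sum there was 12290. The MEKK1-/- control array numbered 1 stood apart for SMAD1 (10.12). The MEKK1-/- CM array numbered 2 did for the contractile mean (9.99) and the acute-phase mean (9.36), that numbered 3 for NFKBIZ (12.09), and that numbered 4 for HNRPA1 (9.47) and IKBKB (8.29).

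Among MEKK1+/+ arrays, the control array numbered 1 stood apart for CALD1 (8.99) and PLAU (10.25), that numbered 3 for RNF2 (7.29) and that numbered 4 for FHL2 (10.66). The CM array numbered 1 did for ZCCHC17 (8.90), LMOD1 (7.98) and the contractile mean (10.32), that numbered 2 for LOC100044702 (11.68), and that numbered 4 for CXCL16 (11.80) and IFIT3 (13.30). The part of marker levels in these values was not tested.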

How the results depend on the processing

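The number of genes with an adjusted interaction p under 0.05 was 0 under every alternative run, except 20 with the z-test on z-scores, 3 without the 2 control arrays numbered 2, 2 without the 4 arrays numbered 2, and 0 to 1 with any array left out. The leave-outs of the arrays numbered 2 were chosen after seeing the data, so their counts are a description and not a test. The count at an unadjusted p under 0.05 was 473 and became 1091 on the deposited scale, 894 with the z-test, 85 among genes above the median level, 67 among genes above the olfactory level, and 431 to 620 with any array left out. The 909 genes responding in MEKK1+/+ cells were 1916 with the z-test, 458 without the 4 arrays numbered 2, 525 without the 2 control arrays numbered 2 and 506 to 1007 with any array left out. The 851 in MEKK1-/- cells were 45 as deposited, 463 with the same median on every array, 2047 with the z-test, 1355 with array weights and 477 to 1027 with any array left out. With the replicate block within each genotype the pairing gave 557 genes for the interaction at an unadjusted p under 0.05, 1481 responding in MEKK1+/+ and 1438 in MEKK1-/- cells, with 0 adjusted interactions, and a block by number over both genotypes gave 494, 915 and 835. The median of the neutrophil-attracting chemokines was 0.78 under either filter on level. CCL5 turned to 0.29 with array weights, 0.29 without the 4 arrays and 0.68 without the 2 control arrays numbered 2. With any array left out, interactions changed sign for C3 (-0.0776 to 1.33), CCL3 (-0.17 to 1.49), CCL5 (-0.34 to 0.39), CCL6 (-0.28 to 0.74), FHL2 (-0.20 to 0.20), GBP2 (-0.19 to 0.71), GBP3 (-0.0598 to 1.22), H2-M3 (-0.0604 to 0.21), IFIT3 (-0.50 to 1.29), JUNB (-0.0413 to 0.41) and LCN2 (-0.61 to 0.79). The causes were not tested.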
